A study of Mus musculus with 9 samples.

Results

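The genes of the axonal cytoskeleton and of its main motor were followed across 9 RNA-seq libraries of mouse brain: neurofilament subunits, the heavy chains of kinesin-1 and microtubule-associated proteins. They are 10 of the 21853 protein-coding genes in the deposited values, and were chosen by name: Nefl, Nefm, Nefh and Ina, Kif5a, Kif5b and Kif5c, and Map1a, Map1b and Mapt. All 10 passed the filter on low values (10 or more in 3 or more libraries). There are 3 groups of 3 libraries each. HD-WNT5B libraries come from N171-82Q mice, a model of Huntington's disease with a transgene for a fragment of mutant huntingtin, that received an adeno-associated virus (AAV) in which a GFAP promoter drives WNT5B and mCherry, joined by a P2A peptide. HD-Control libraries come from N171-82Q mice that received a virus with mCherry alone behind that promoter. WT-Control libraries come from wild-type mice that received the mCherry virus, so every group carries an AAV and mCherry. The GFAP promoter is used to direct expression to astrocytes. The injection was into the striatum, per the series' design text, while the labels name the tissue only as brain. The strain, age and sex of the mice, the promoter of the huntingtin transgene and the number of animals per library are not stated in the labels.

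Neurofilaments are the intermediate filaments of axons: a light chain (Nefl), a medium chain (Nefm), a heavy chain (Nefh) and alpha-internexin (Ina) assemble into shared polymers that set axon calibre, and neurofilament light protein in body fluids is used as a marker of axonal injury in Huntington's disease. Kinesin-1 is the motor that carries vesicles, mitochondria and cytoskeletal cargo along microtubules towards the axon terminal. Its heavy chains form dimers, of which Kif5b is made in most tissues while Kif5a and Kif5c are mainly neuronal. Map1b is prominent in growing axons of the developing brain, Map1a in mature neurons, and Mapt encodes tau, which stabilises axonal microtubules and forms aggregates in several brain diseases.

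Values are estimated reads divided by a factor per library, with no division by transcript length, and are called normalised read counts. Reads in protein-coding genes, estimated from the values, numbered 37.3 to 52.1 M in HD-WNT5B, 69.8 to 90.6 M in HD-Control and 67.8 to 77.8 M in WT-Control. In those groups 14291 to 14588, 17223 to 17349 and 17027 to 17132 genes were above 0. HD-WNT5B libraries also stood apart in 2 other ways. Between pairs of replicates the variance exceeded that of read counting by a factor of 37.04 to 38.78 in HD-WNT5B, 1.75 to 2.09 in HD-Control and 1.73 to 3.18 in WT-Control. The change in HD-WNT5B against HD-Control followed transcript length over all genes, with a median log2 difference of 1.97 below 1 kb and of -1.15 from 8 to 12 kb, and it followed GC content, with -0.99 below 42% and 0.92 from 62% upwards. In HD-Control against WT-Control the medians of the length classes lay between -0.09 and 0.08. Mouse Wnt5b had 184, 22.5 and 212 normalised read counts in HD-WNT5B libraries 1, 2 and 3, against 44.2 to 63.8 in HD-Control and 57.7 to 74.6 in WT-Control, so the library labelled HD-WNT5B 2 was below every control library. Whether reads of the delivered WNT5B align to that gene is not given in the sources used here. Without that library the members called in HD-WNT5B against HD-Control remained 9 in number, with log2 differences of -1.30 (Kif5b) to 1.12 (Map1b), and only Nefh, which was not called, changed sign (0.07). No marker of the 10 cell type lists was at 0 throughout a group, and the 12 markers of striatal projection neurons, the main neurons of the striatum, summed to 395363 to 408187 in HD-WNT5B, 533831 to 536975 in HD-Control and 602391 to 604038 in WT-Control. The labels do not say whether replicates are separate animals, so p-values measure only the spread between these libraries, which may be technical.

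The 300 bases around the transcription start, from 250 before it to 50 after it, were found for 4 of the 10 genes in RefSeq (GRCm38.p6). They are shown because Map1a and Map1b encode related proteins whose RNA ratio differed between the groups, and Ina and Kif5c are the members of the other families for which a sequence was at hand. Each is written 5′ to 3′ on the strand of its gene, and capitals mark matches on either strand to GGGCGG, known as a GC box, to the core promoter element TATAAA, to the motif CCAAT, to the palindrome CACGTG known as an E-box, or to TGACG, which is part of the response element of cyclic AMP.
Map1a: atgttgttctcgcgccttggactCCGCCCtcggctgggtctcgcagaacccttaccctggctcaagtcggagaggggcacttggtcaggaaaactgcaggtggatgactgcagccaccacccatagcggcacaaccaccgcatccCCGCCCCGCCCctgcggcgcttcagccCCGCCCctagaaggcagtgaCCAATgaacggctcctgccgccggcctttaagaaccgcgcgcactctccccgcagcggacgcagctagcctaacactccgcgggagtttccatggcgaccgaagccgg
Map1b: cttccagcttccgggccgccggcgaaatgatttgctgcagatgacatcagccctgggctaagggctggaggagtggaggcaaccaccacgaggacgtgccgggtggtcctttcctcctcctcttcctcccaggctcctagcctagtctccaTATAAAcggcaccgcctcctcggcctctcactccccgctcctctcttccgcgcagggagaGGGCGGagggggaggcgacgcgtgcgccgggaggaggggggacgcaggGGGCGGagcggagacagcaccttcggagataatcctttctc
Ina: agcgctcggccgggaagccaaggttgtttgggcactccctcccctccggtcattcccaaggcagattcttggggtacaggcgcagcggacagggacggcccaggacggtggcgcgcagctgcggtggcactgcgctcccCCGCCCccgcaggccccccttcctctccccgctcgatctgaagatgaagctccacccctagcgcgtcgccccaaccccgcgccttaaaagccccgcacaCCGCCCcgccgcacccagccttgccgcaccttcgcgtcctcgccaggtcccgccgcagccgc
Kif5c: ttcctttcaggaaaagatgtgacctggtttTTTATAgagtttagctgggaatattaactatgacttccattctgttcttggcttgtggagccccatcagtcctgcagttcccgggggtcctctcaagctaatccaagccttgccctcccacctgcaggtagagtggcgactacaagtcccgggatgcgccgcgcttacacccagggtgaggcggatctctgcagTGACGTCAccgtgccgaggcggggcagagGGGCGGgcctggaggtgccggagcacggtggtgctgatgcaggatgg
On GRCm38.p6 the windows are chr2:121289352-121289651 (plus strand) for Map1a, chr13:99516553-99516852 (minus strand) for Map1b, chr19:47014431-47014730 (plus strand) for Ina and chr2:49619036-49619335 (plus strand) for Kif5c. GC content was 65.7% in Map1a, 65.7% in Map1b, 71.7% in Ina and 58% in Kif5c, against a median of 52.7% over 32851 mouse promoters of that length. CpG dinucleotides numbered 27, 23, 32 and 14 in that order, against a median of 7. Map1a held 4 matches to GGGCGG, of which those that begin at -105 and -100 overlap, and a CCAAT match at -58. Map1b held 2 matches to GGGCGG and a TATAAA match at -99, on its own strand. Ina held 2 matches to GGGCGG, and Kif5c held 1, together with a TATAAA match on the opposite strand at -220 and overlapping TGACG matches on both strands at -26 and -23. Of all promoters of that length, 35.7% held GGGCGG, 13.6% TATAAA, 37.4% CCAAT, 7.15% CACGTG and 20.8% TGACG. A match describes these letters only.

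In HD-Control against WT-Control, 8 of the 10 genes fell and none rose: all 4 neurofilament subunits, Kif5a, Kif5c, Map1a and Mapt (limma, Benjamini-Hochberg adjusted p under 0.05 over the 15411 genes tested). The median log2 change of the 10 was -0.55, against 0.02 over all genes tested. Of all genes tested 45.1% were called, 24.5% higher and 20.7% lower. The 3 HD-Control values lay outside the range of the 3 WT-Control values for 10 of 10 genes, and for 84% of all genes. The spread in this test is shared with the more scattered HD-WNT5B libraries. When each group was given its own spread by weights, 10 of 10 genes passed, Kif5b lower and Map1b higher in HD-Control (adjusted p = 3.4e-08 and 3.0e-06), as did 82.9% of all genes. In bulk tissue, fewer cells of a type and less RNA per cell cannot be told apart.

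In HD-WNT5B against HD-Control, 6 of the 10 genes rose, 3 fell and Nefh was not called, and with equal library totals 2 of the 6, Nefl and Kif5c, were lower instead. Map1a, Map1b, Mapt and Nefm were higher under every scaling run, with equal library totals by a log2 difference of 0.14, 0.70, 0.36 and 0.55. Ina, Kif5a and Kif5b were then lower by more, at -1.34, -1.37 and -1.74. Of all genes tested 77.5% were called, 35.8% higher and 41.7% lower, so a call is common in this comparison. The ranges of the groups did not overlap for 9 of the 10 genes and for 78.7% of all genes. The median log2 change was 0.32 for the 10 and -0.23 for all genes. In HD-WNT5B against WT-Control, 3 genes (Map1a, Map1b and Mapt) rose and 6 fell, with 77.9% of all genes called, 35.9% higher and 42.1% lower, and with equal library totals Map1a and Mapt were lower instead. Here the ranges did not overlap for 9 of 10 genes and for 79.4% of all genes. These comparisons share libraries with each other and with HD-Control against WT-Control, so they are not independent. Their spread is also shared with the less scattered control libraries, which lowers their p-values. With only HD-WNT5B and HD-Control in the fit, 9 of the 10 genes still passed. The limma adjusted p was then 3.1e-06 in place of 1.7e-08 for Mapt and 0.004 in place of 4.2e-04 for Nefl. Equal totals moved the median of all genes by -0.54 in HD-WNT5B against HD-Control and by -0.55 against WT-Control. The share of called genes that were higher was then 32% in place of 46.2% against HD-Control, and 31.7% in place of 46% against WT-Control.

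**Figure D1:**
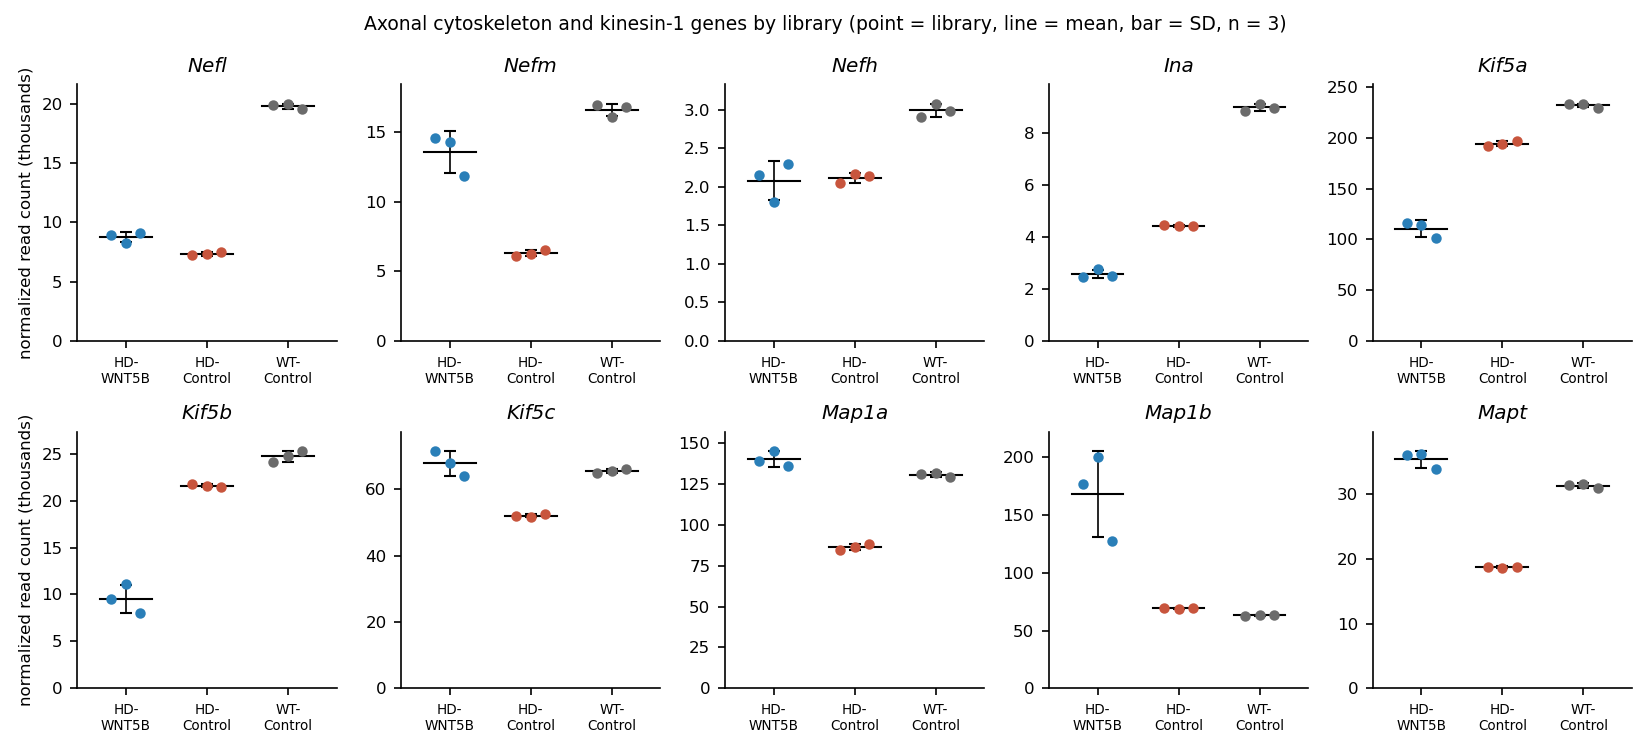
Normalised read counts (y axes, linear from 0, in the unit each axis gives) of the 10 genes in the 9 libraries (x axis, HD-WNT5B, HD-Control and WT-Control); points are libraries, lines the means and bars the SD (n = 3). HD-Control points lay below every WT-Control point for 9 of the 10 genes and above them for Map1b, while HD-WNT5B points were the lowest for Ina, Kif5a and Kif5b and the highest for Map1a, Map1b and Mapt on the deposited scale (with equal library totals Map1a and Mapt were below WT-Control).

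The light and medium chains showed the largest falls of the 10 genes in HD-Control. Nefl had 8922, 8261 and 9133 normalised read counts in HD-WNT5B, 7231, 7302 and 7500.3 in HD-Control and 19914, 19946 and 19554 in WT-Control. The HD-Control mean was 0.37 of the WT-Control mean (log2 -1.43, SE 0.04, limma adjusted p = 2.1e-07). HD-WNT5B libraries were above all HD-Control libraries but far below those of WT-Control: the rise over HD-Control was 0.25 (SE 0.04, limma adjusted p = 4.2e-04), became -0.30 with equal library totals, and left Nefl at -1.18 against WT-Control (SE 0.04, adjusted p = 1.6e-08). Nefl (ENSMUSG00000022055.7) lies at chr14:68083863-68089095 of mm10 on the plus strand.

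Nefm, which carries a long phosphorylated tail, had 14585, 14254 and 11809 normalised read counts in HD-WNT5B, 6078, 6266 and 6513 in HD-Control and 16934, 16093 and 16763 in WT-Control. Its mean fell to 0.38 of that of WT-Control in HD-Control (log2 -1.40, SE 0.08, limma adjusted p = 3.1e-06). In HD-WNT5B it was 2.16 times the HD-Control mean (log2 1.10, SE 0.08, adjusted p = 1.4e-06), a log2 difference of 0.55 with equal library totals. It was below WT-Control (log2 -0.30, SE 0.08, adjusted p = 0.00604), by -0.88 with equal totals. All 3 HD-WNT5B libraries thus lay between the control groups, with library 3 the lowest. Nefm (ENSMUSG00000022054.11) lies at chr14:68082590-68124846 on the minus strand, a span that holds all of Nefl. Their annotated exons share 1108 bases on opposite strands, 32.78% of the exon bases of Nefl and 19.16% of those of Nefm. The library kit does not mark strand, so reads from those bases cannot be assigned to either gene by strand.

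The heavy chain Nefh, whose tail holds many phosphorylation sites, had 2146, 1804 and 2290.2 normalised read counts in HD-WNT5B, 2043, 2162 and 2137 in HD-Control and 2905, 3079 and 2983 in WT-Control. Both N171-82Q groups lay below WT-Control with no overlap: log2 -0.50 in HD-Control (SE 0.09, limma adjusted p = 0.00164) and -0.53 in HD-WNT5B (SE 0.09, adjusted p = 4.4e-04). Between HD-WNT5B and HD-Control the ranges overlapped, and the difference of -0.03 (SE 0.09, adjusted p = 0.763) was 0.07 without HD-WNT5B library 2, and -0.58 (adjusted p = 4.8e-04) with equal library totals. Nefh (ENSMUSG00000020396.8) lies at chr11:4938754-4948064 on the minus strand.

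Ina, alpha-internexin, was lower in HD-WNT5B than in HD-Control under every scaling run, unlike Nefm. It had 2461, 2756 and 2490 normalised read counts in HD-WNT5B, 4468, 4407 and 4425 in HD-Control and 8851, 9136 and 8975 in WT-Control. It fell to 0.49 of the WT-Control mean in HD-Control (log2 -1.02, SE 0.05, limma adjusted p = 1.6e-06), and to 0.58 of the HD-Control mean in HD-WNT5B (log2 -0.79, SE 0.05, adjusted p = 6.5e-07). The HD-WNT5B mean was 0.29 of that of WT-Control (log2 -1.81, SE 0.05, adjusted p = 3.2e-09), the lowest such ratio of the 10 genes. Ina (ENSMUSG00000034336.3) lies at chr19:47014698-47025327 on the plus strand, and 14.07% of its exon bases are shared with Nt5c2 on the other strand.

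The balance among the 4 subunits was followed within each library, where a factor per library cancels but the trend on length and GC does not. The Nefm to Nefl ratio was 0.856 ± 0.014 in HD-Control and 0.838 ± 0.0273 in WT-Control, and the groups overlapped (two-sided exact permutation p = 0.4, n = 3 each). In HD-WNT5B the ratio was 1.55 ± 0.228, with libraries at 1.63, 1.73 and 1.29. Nefh to Nefl was 0.288 ± 0.00725 in HD-Control and 0.151 ± 0.00449 in WT-Control, and Ina to Nefl 0.604 ± 0.0139 and 0.454 ± 0.00812 in those groups. So in HD-Control the light and medium chains kept their proportion within the spread, while both the heavy chain and alpha-internexin stood higher relative to the light chain. Nefl and Nefm share exon bases on opposite strands, as given above. In HD-WNT5B Nefh to Nefl was 0.237 ± 0.0166 and Ina to Nefl 0.294 ± 0.0343, both below HD-Control. With the trend on length and GC removed, the log2 differences of HD-WNT5B from HD-Control were 0.37 in place of 0.85 for Nefm to Nefl, -0.72 in place of -0.28 for Nefh to Nefl and -1.52 in place of -1.04 for Ina to Nefl. Each of these ratios other than Nefm to Nefl in HD-Control against WT-Control separated the groups with no overlap, at the smallest p that 3 against 3 allows (two-sided exact permutation p = 0.1, adjusted 0.106 over 51 comparisons). Per kb of transcript, Nefm made up 48.4% ± 3.63 of the 4 subunits in HD-WNT5B, 29.6% ± 0.489 in HD-Control and 32.5% ± 0.802 in WT-Control. Ina made up 10.5% ± 0.783, 23.7% ± 0.546 and 20% ± 0.379 in those groups.

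**Figure D2:**
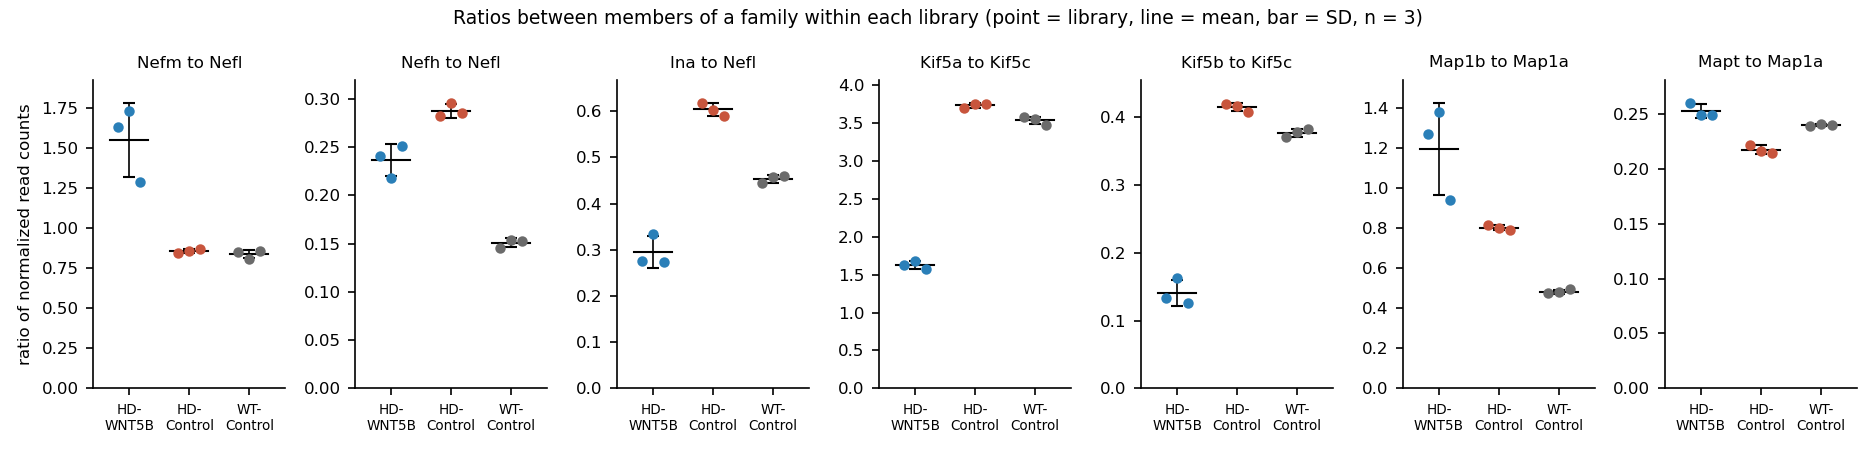
Ratio of normalised read counts between 2 genes of a family in each library (y axes, from 0) for 7 ratios, in HD-WNT5B, HD-Control and WT-Control (x axes); points are libraries, lines means and bars SD (n = 3). Kif5a to Kif5c was 1.63 in HD-WNT5B, 3.73 in HD-Control and 3.54 in WT-Control, and Map1b to Map1a was 1.2, 0.802 and 0.483 in those groups.

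Among the kinesin-1 heavy chains, Kif5a and Kif5c fell modestly in HD-Control, and in HD-WNT5B Kif5a fell while Kif5c rose on the deposited scale but not with equal library totals. Kif5a, mutated in hereditary spastic paraplegia, had the highest value of all genes in the 3 WT-Control libraries and ranked 4 in each HD-Control library and 69 to 81 in HD-WNT5B. Its normalised read counts were 116642, 113954 and 100952 in HD-WNT5B, 191729, 194305 and 196633 in HD-Control and 232945, 232900.0 and 229655 in WT-Control. The 3 groups did not overlap, in that order from low to high. HD-Control was 0.84 of WT-Control (log2 -0.26, SE 0.05, limma adjusted p = 0.00373), and HD-WNT5B was 0.57 of HD-Control (log2 -0.82, SE 0.05, adjusted p = 7.8e-07) and 0.48 of WT-Control (log2 -1.07, SE 0.05, adjusted p = 1.2e-07). With the trend on length and GC removed, the HD-WNT5B differences were -0.31 and -0.51. Kif5a (ENSMUSG00000074657.5) lies at chr10:127225696-127263348 on the minus strand.

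Kif5b, the widely expressed heavy chain, had 9552, 11064 and 8078 normalised read counts in HD-WNT5B, 21791, 21583 and 21404 in HD-Control and 24104, 24776 and 25282 in WT-Control. HD-WNT5B stood at 0.44 of HD-Control (log2 -1.19, SE 0.10, limma adjusted p = 4.1e-06), and at 0.39 of WT-Control (log2 -1.38, SE 0.10, adjusted p = 1.5e-06). Both differences were near 0 with the trend on length and GC removed: 0.03 against HD-Control (adjusted p = 0.655) and -0.12 against WT-Control (adjusted p = 0.128). Its transcript has 6.03 kb and the lowest GC content of the 10 genes, 41.1%. HD-Control lay below WT-Control in every library by a small amount that did not pass (log2 -0.19, SE 0.10, adjusted p = 0.133), and that passed without HD-WNT5B library 2 (adjusted p = 0.0248) or library 3 (adjusted p = 0.0135). Kif5b (ENSMUSG00000006740.14) lies at chr18:6201002-6242174 on the minus strand, with 4.06% of its exon bases shared with antisense genes.

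Kif5c had 71573, 67779 and 64006 normalised read counts in HD-WNT5B, 51826, 51722 and 52464 in HD-Control and 64979, 65536 and 66065 in WT-Control. HD-Control was below the other groups with no overlap, while HD-WNT5B spanned the WT-Control range. It fell to 0.79 of the WT-Control level in HD-Control (log2 -0.33, SE 0.04, limma adjusted p = 2.1e-04). HD-WNT5B was 1.30 times HD-Control (log2 0.38, SE 0.04, adjusted p = 2.3e-05), a difference of -0.17 with equal library totals and of 1.34 with the trend on length and GC removed. Against WT-Control the difference of 0.05 (SE 0.04, adjusted p = 0.295) was 0.09 without HD-WNT5B library 3 (adjusted p = 0.0111), -0.53 with equal totals, -0.02 with upper-quartile factors and 1.04 with the trend removed, so its direction depends on the scale. Kif5c (ENSMUSG00000026764.15) lies at chr2:49619298-49774778 on the plus strand.

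The make-up of the kinesin-1 heavy chains differed by under 1 percentage point between HD-Control and WT-Control. Per kb, Kif5a made up 60.5% ± 0.369 of the 3 chains in HD-WNT5B, 73.4% ± 0.233 in HD-Control and 72.9% ± 0.402 in WT-Control. Kif5c made up 34.1% ± 0.903, 18.1% ± 0.0975 and 18.9% ± 0.197, and Kif5b 5.45% ± 0.613, 8.52% ± 0.158 and 8.12% ± 0.207, in those groups. The Kif5a to Kif5c ratio was 1.63 ± 0.052 in HD-WNT5B, 3.73 ± 0.0308 in HD-Control and 3.54 ± 0.056 in WT-Control, and no groups overlapped (two-sided exact permutation p = 0.1, the smallest possible, n = 3 each). Kif5b to Kif5c was 0.141 ± 0.0196, 0.415 ± 0.00649 and 0.377 ± 0.0059 in those groups. HD-WNT5B thus stood apart from both control groups, with a larger share of Kif5c and smaller shares of Kif5a and Kif5b.

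The microtubule-associated proteins split in HD-Control: Map1a and Mapt fell and Map1b was not called. In HD-WNT5B all 3 were higher than in HD-Control under every scaling run. Map1a had 139144, 145194 and 135655 normalised read counts in HD-WNT5B, 84789, 86310 and 87939 in HD-Control and 131198, 131415 and 128864 in WT-Control. HD-Control was 0.66 of WT-Control (log2 -0.60, SE 0.03, limma adjusted p = 3.1e-06), and HD-WNT5B was 1.62 times HD-Control (log2 0.70, SE 0.03, adjusted p = 1.1e-07), a log2 difference of 0.14 with equal library totals (adjusted p = 7.7e-04). HD-WNT5B libraries lay just above those of WT-Control. That difference of 0.10 (SE 0.03, adjusted p = 0.0185) was -0.48 with equal library totals, and did not pass with upper-quartile factors, with trimmed-mean factors, with a weight per group, or without WT-Control library 3 (adjusted p = 0.063). Map1a (ENSMUSG00000027254.13) lies at chr2:121289600-121310832 on the plus strand and its longest transcript has 11.82 kb.

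Map1b had 176945, 200342 and 127405 normalised read counts in HD-WNT5B, 69117, 68985 and 69487 in HD-Control and 62320, 63091 and 63721 in WT-Control. It is the only gene of the 10 whose HD-Control values lay above those of WT-Control, by 0.13 on the log2 scale (SE 0.14, limma adjusted p = 0.477). That difference passed without HD-WNT5B library 3 (adjusted p = 0.0264). In HD-WNT5B it was 2.43 times the HD-Control mean (log2 1.26, SE 0.14, adjusted p = 3.4e-05) and 2.67 times that of WT-Control (log2 1.39, SE 0.14, adjusted p = 1.7e-05), log2 differences of 0.70 and 0.81 with equal library totals. The HD-WNT5B libraries scattered most for this gene, with a coefficient of variation of 22.1%, and library 3 was the lowest. Map1b (ENSMUSG00000052727.6) lies at chr13:99421446-99516540 on the minus strand, with a longest transcript of 11.81 kb.

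Mapt had 36133, 36170 and 33843 normalised read counts in HD-WNT5B, 18808, 18642 and 18784 in HD-Control and 31406, 31647 and 30896 in WT-Control. It fell to 0.60 of the WT-Control mean in HD-Control (log2 -0.74, SE 0.03, limma adjusted p = 1.1e-06). In HD-WNT5B it was 1.89 times the HD-Control mean (log2 0.92, SE 0.03, adjusted p = 1.7e-08) and 1.13 times that of WT-Control (log2 0.18, SE 0.03, adjusted p = 8.9e-04), but with equal library totals the log2 differences were 0.36 and -0.41. The 3 groups did not overlap. The counts are per gene and do not separate tau isoforms, which differ in their microtubule-binding repeats. Mapt (ENSMUSG00000018411.17) lies at chr11:104231390-104332090 on the plus strand.

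The Map1b to Map1a ratio was 1.2 ± 0.23 in HD-WNT5B, 0.802 ± 0.0127 in HD-Control and 0.483 ± 0.0101 in WT-Control, with no overlap between any groups (two-sided exact permutation p = 0.1, the smallest possible, n = 3 each). Mapt to Map1a moved less, at 0.253 ± 0.006, 0.217 ± 0.00423 and 0.240 ± 0.000748, again with no overlap. With the trend on length and GC removed, its difference between HD-WNT5B and WT-Control was -0.07 in place of 0.07 (log2), and that of Map1b to Map1a between HD-WNT5B and HD-Control was 1.04 in place of 0.56. Per kb, Map1b made up 43.0% ± 4.87 of the 3 genes in HD-WNT5B, 35% ± 0.214 in HD-Control and 23.9% ± 0.38 in WT-Control. So relative to Map1a, Map1b was higher in both N171-82Q groups than in WT-Control.

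**Figure D3:**
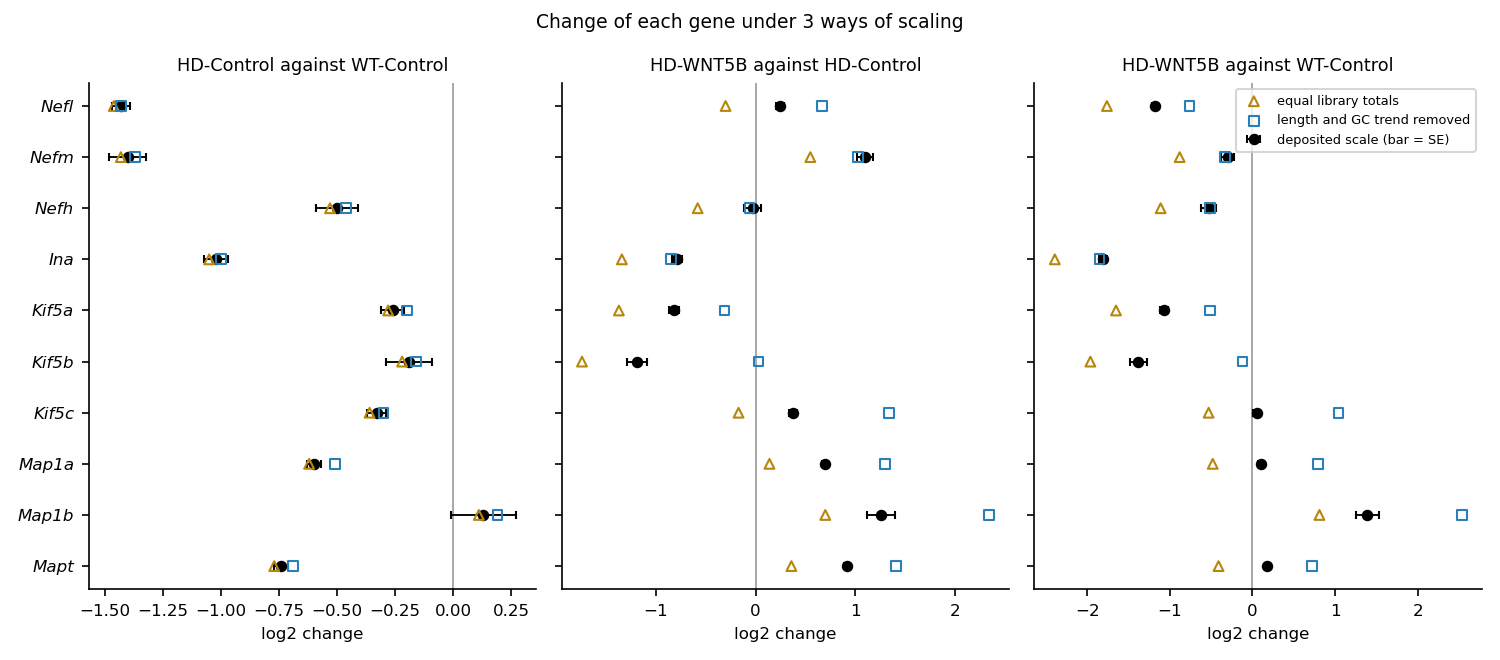
Log2 change of each gene (x axes) in the 3 comparisons; filled circles with SE bars are the deposited scale, open triangles equal library totals and open squares the trend on length and GC removed. The scalings gave nearly the same changes in HD-Control against WT-Control, whereas in HD-WNT5B against HD-Control Nefl and Kif5c were below 0 with equal totals (-0.30 and -0.17) and Kif5b was at 0.03 with the trend removed.

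Transcript length bears on the comparison with HD-WNT5B, since the 10 genes have longest transcripts of 3.24 kb (Ina) to 11.82 kb (Map1a), a range over which the median of all genes in HD-WNT5B against HD-Control was below 0. Genes of 3 to 4 kb had a median of -0.30, those of 4 to 6 kb -0.64 and those of 6 to 8 kb -1.03. Map1a and Map1b, at 0.70 and 1.26, lay above the upper quartile of their length class, -0.24. Nefm, Mapt and Kif5c also lay above the upper quartiles of their classes (0.69, 0.31 and -0.00), and Nefl, Nefh, Ina, Kif5a and Kif5b lay between the quartiles. With the trend on length and GC removed, the differences were 2.34 for Map1b, 1.41 for Mapt, 1.34 for Kif5c, 1.30 for Map1a, 1.03 for Nefm, 0.67 for Nefl, -0.06 for Nefh, -0.31 for Kif5a and -0.85 for Ina. In HD-Control against WT-Control they were -1.43 for Nefl, -0.51 for Map1a and 0.19 for Map1b, near those on the deposited scale.

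**Figure D4:**
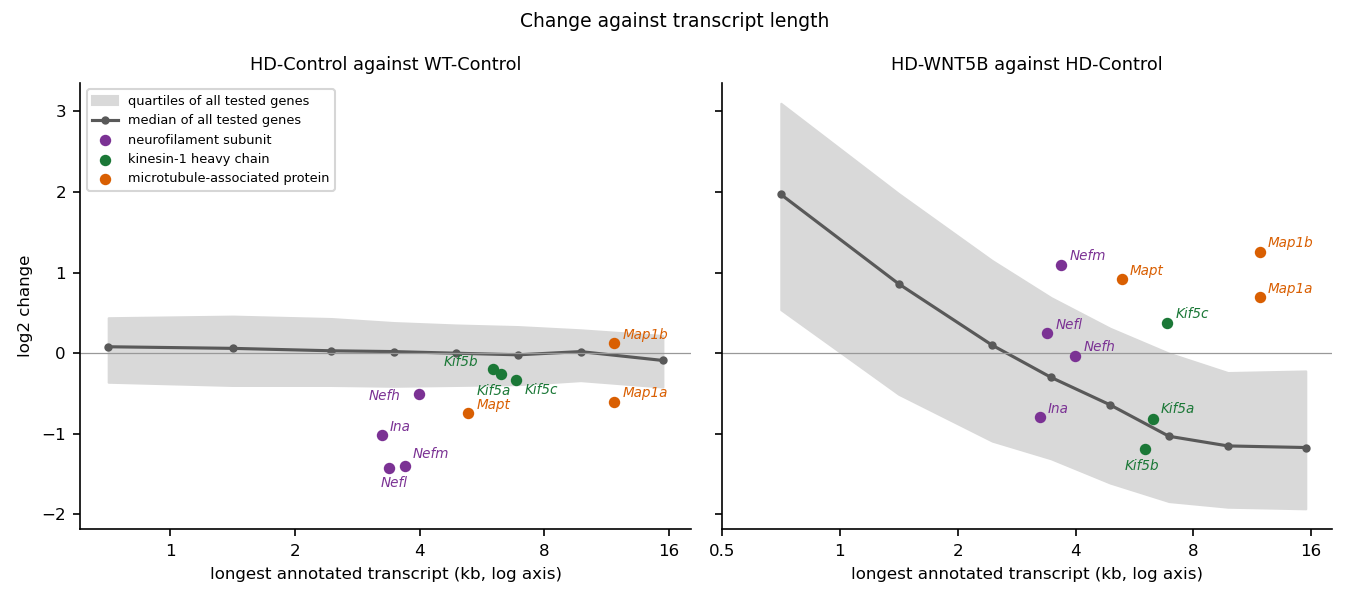
Log2 change (y axis) against the longest annotated transcript in kb (x axis, log scale) in HD-Control against WT-Control and in HD-WNT5B against HD-Control; the grey line and band are the median and quartiles of all tested genes in 8 length classes and the points the 10 genes. The median ran from 1.97 for the shortest genes to -1.17 for the longest in HD-WNT5B against HD-Control, and stayed between -0.09 and 0.08 in HD-Control against WT-Control.

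Per kb of transcript, Kif5a was the highest and Nefh the lowest of the 10 genes in each group. Kif5a had 17556 ± 1333 normalised read counts per kb in HD-WNT5B, 30853 ± 390 in HD-Control and 36828 ± 300 in WT-Control, and Nefh 521 ± 62.6, 529 ± 15.8 and 748 ± 21.9. In HD-WNT5B the order after Kif5a was Map1b, Map1a, Kif5c, Mapt, Nefm, Nefl, Kif5b, Ina and Nefh, and the ranges of Kif5a and Map1b and of Map1b and Map1a overlapped. In HD-Control it was Kif5c, Map1a, Map1b, Kif5b, Mapt, Nefl, Nefm, Ina and Nefh, with an overlap between Kif5b and Mapt. In WT-Control it was Map1a, Kif5c, Mapt, Nefl, Map1b, Nefm, Kif5b, Ina and Nefh, with an overlap between Mapt and Nefl. Map1b thus stood at place 2 in HD-WNT5B and at place 6 in WT-Control, and Nefl at place 7 in HD-WNT5B and at place 5 in WT-Control. The 10 genes together took 0.620% to 0.718% of the summed values in HD-WNT5B, 0.823% to 0.837% in HD-Control and 1.086% to 1.092% in WT-Control.

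Markers of whole cell types also differed between the groups. The 15 pan-neuronal markers summed to 584644 to 623732 in HD-WNT5B, 493928 to 499106 in HD-Control and 554647 to 563997 in WT-Control, but with equal library totals to 460458 to 468562, 558610 to 562740 and 639503 to 648235, the lowest in HD-WNT5B. In HD-Control against WT-Control 9 of them fell and 0 rose (median log2 change -0.16), while with a weight per group 11 fell and 3 rose. Against HD-Control, 8 rose and 6 fell in HD-WNT5B (median 0.59), and with equal library totals 7 rose and 7 fell (median 0.04). Set against the mean log2 value of these markers in the same library, Nefl differed between HD-Control and WT-Control by -1.12, Nefm by -1.09, Ina by -0.71, Mapt by -0.43, Map1a by -0.28 and Nefh by -0.19. Kif5a, Kif5b and Map1b differed by 0.06, 0.12 and 0.45. All of these separated the groups with no overlap, at the smallest two-sided exact permutation p of 0.1 (n = 3 each), while Kif5c at -0.02 overlapped (exact permutation p = 0.3). In HD-WNT5B against HD-Control Nefl differed by 0.04 and overlapped (exact permutation p = 0.7), and was -0.02 without HD-WNT5B library 3. Nefm, Mapt, Map1a and Map1b were higher relative to the markers, by 0.88, 0.70, 0.48 and 1.04. Ina, Kif5a and Kif5b were lower, by -1.01, -1.03 and -1.40. Kif5c and Nefh differed from the markers by 0.16 and -0.25, also with no overlap between HD-WNT5B and HD-Control. A factor per library cancels in these values, but the trend on length and GC does not. With that trend removed, the log2 changes of the genes themselves were -0.85 for Ina, -0.31 for Kif5a and 0.03 for Kif5b. Those of Nefm, Mapt, Map1a and Map1b were then 1.03 to 2.34.

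Other lists gave the following. The 10 cortical excitatory markers summed to 32387 to 35289 in HD-WNT5B, 16559 to 16748 in HD-Control and 32392 to 33078 in WT-Control. With equal library totals the sums were 25508 to 27145, 18729 to 18941 and 37348 to 38028. Of these markers 8 fell in HD-Control against WT-Control (median -1.16). In HD-WNT5B against WT-Control 8 fell and 2 rose (median -1.19), although the sums on the deposited scale overlapped. Of the 12 striatal projection neuron markers 9 fell and 3 rose in HD-Control against WT-Control (median -0.38). The 9 interneuron markers summed to 59668 to 64467, 73717 to 74290 and 86691 to 87711, with 4 lower in HD-Control, and the 6 thalamic and midbrain markers to 8676 to 10337, 8947 to 9016 and 7461 to 7806, with 2 lower and 1 higher. The higher one, Rora, was the larger part of the thalamic and midbrain sums, averaging 6864, 6537 and 4386 in those groups. The median of that list in HD-Control against WT-Control was -0.31. Glial markers were mostly lower too. The 10 oligodendrocyte markers summed to 763664 to 810738 in HD-WNT5B, 341309 to 343785 in HD-Control and 472521 to 477668 in WT-Control, with 9 lower in HD-Control (median -0.99). The 10 microglia markers, of which 9 were lower, summed to 48723 to 54028, 16067 to 16136 and 32061 to 32548, and the 10 astrocyte markers, of which 7 were lower and 1 higher, to 203774 to 219482, 208461 to 209821 and 328428 to 331481. The 6 oligodendrocyte precursor markers (5 lower) summed to 11502 to 12933, 12124 to 12497 and 19323 to 20493, and the 10 endothelial and mural markers (5 lower, 1 higher) to 45131 to 54349, 16918 to 17017 and 23392 to 23701. In HD-WNT5B against WT-Control 4 of the endothelial and mural markers rose and 6 fell (median -0.82), although their sums were highest in HD-WNT5B. Of the microglia markers 5 rose and 4 fell in that comparison (median 0.38), and with equal library totals 4 rose and 5 fell (median -0.20). The microglia sums were then 37723 to 40587 in HD-WNT5B and 36859 to 37409 in WT-Control. For HD-WNT5B against HD-Control the calls in these 9 lists, higher and lower, were 3 and 2 for cortical, 3 and 6 for striatal projection, 3 and 4 for interneuron, 2 and 1 for thalamic and midbrain, 7 and 3 for oligodendrocyte, 7 and 0 for microglia, 5 and 3 for astrocyte, 3 and 2 for precursor and 5 and 4 for endothelial and mural markers. With equal library totals they were 3 and 7, 2 and 9, 3 and 5, 1 and 3, 5 and 4, 6 and 3, 5 and 5, 1 and 2, and 3 and 5 in that order, so the balance of several lists depends on the scale. The sums of the oligodendrocyte markers were still highest in HD-WNT5B with equal totals, at 601452 to 614700, against 386006 to 387616 in HD-Control and 543240 to 549012 in WT-Control. The part of cell type make-up in the changes of the 10 genes was not tested.

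The 8 lists of related function give the setting of the 10 genes. The spectrins, ankyrins and node proteins of the axonal membrane fell with the neurofilaments in HD-Control: 16 of 18 fell and 1 rose (median log2 change -0.48). Cntnap1, the paranodal contactin-associated protein, had 14059 normalised read counts in HD-Control and 26284 in WT-Control (log2 -0.90, SE 0.04, limma adjusted p = 1.6e-06). Nfasc, a cell adhesion molecule of the node and initial segment, had 18788 in HD-Control and 26363 in WT-Control (log2 -0.49, SE 0.03, adjusted p = 2.7e-06). Against HD-Control, 12 of the 18 fell and 3 rose in HD-WNT5B (median -0.52), 6 fell and 8 rose with the trend on length and GC removed. Sptbn1, a beta spectrin, had 15679 in HD-WNT5B and 44173 in HD-Control (log2 -1.50, SE 0.06, adjusted p = 2.7e-08).

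Of 9 other intermediate filament genes, 4 rose and 5 were not called in HD-Control against WT-Control (median 0.23), while with a weight per group 6 rose and 2 fell. Vim, the vimentin of glia and other non-neuronal cells, had 2609 in HD-Control and 1602 in WT-Control (log2 0.70, SE 0.10, limma adjusted p = 5.9e-04), and Gfap, the filament protein of astrocytes, 8075 and 5584 (log2 0.53, SE 0.06, adjusted p = 1.0e-04). Against HD-Control, 2 rose and 4 fell in HD-WNT5B, 5 and 3 with the trend on length and GC removed. Gfap had 5176 in HD-WNT5B (log2 -0.64 against HD-Control, SE 0.06, adjusted p = 6.3e-06), and the nuclear lamin Lmna 10908 in HD-WNT5B and 1805 in HD-Control (log2 2.59, SE 0.05, adjusted p = 7.2e-10). Gfap is the gene whose promoter is used in both viruses.

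Kinesin-1 light chains and cargo adaptors were mixed in HD-Control against WT-Control, with 5 of 19 higher, 3 lower and 11 not called (median 0.11), and 10 higher and 8 lower with a weight per group. Klc1, a light chain that links the heavy chains to cargo, had 31735 in HD-Control and 24772 in WT-Control (log2 0.36, SE 0.03, limma adjusted p = 1.9e-05), a rise where Kif5a and Kif5c fell. Rhot2, a mitochondrial adaptor, rose (log2 0.49, SE 0.04, adjusted p = 2.2e-05) and Mapk8ip1, a scaffold that binds the light chains, fell (log2 -0.45, SE 0.05, adjusted p = 1.9e-04). Against HD-Control, 6 rose and 9 fell in HD-WNT5B, 3 and 13 with equal library totals. Of 14 other transport kinesins 4 rose and 4 fell in HD-Control, 1 and 6 with upper-quartile factors. Kif1a, a motor of synaptic vesicle precursors, had 31761 in HD-WNT5B, 95329 in HD-Control and 80996 in WT-Control. Of the 14, 12 fell in HD-WNT5B against HD-Control and 2 rose (median -0.89), but with the trend on length and GC removed 7 fell and 5 rose. Dynein and dynactin, the motor for transport back to the cell body, had 7 of 24 higher and 4 lower in HD-Control (median 0.03), 12 and 8 with a weight per group, and 12 higher and 10 lower in HD-WNT5B, 9 and 14 with equal totals. Dctn1, the large dynactin subunit, had 13678 in HD-WNT5B, 36271 in HD-Control and 25640.0 in WT-Control.

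Of 30 other microtubule-associated proteins 9 rose and 12 fell in HD-Control against WT-Control (median -0.01), 14 and 14 with a weight per group. Stmn1, a tubulin-binding protein that destabilises microtubules, had 24088 in HD-WNT5B, 3550.0 in HD-Control and 7317 in WT-Control: it fell in HD-Control (log2 -1.04, SE 0.04, limma adjusted p = 8.1e-07) and was higher in HD-WNT5B (log2 2.76 against HD-Control, SE 0.04, adjusted p = 1.5e-10). Dclk1, a doublecortin-like kinase, rose in HD-Control (log2 0.65, SE 0.03, adjusted p = 8.1e-07). In HD-WNT5B against HD-Control 10 rose and 17 fell (median -0.66), 12 and 12 with the trend removed. Of 25 kinases and phosphatases that act on tau and neurofilaments 12 rose and 6 fell in HD-Control (median 0.19), 14 and 10 with a weight per group, and 9 rose and 15 fell in HD-WNT5B, 10 and 11 with the trend removed. Cdk5r2, an activator of the tau kinase Cdk5, fell in HD-Control (log2 -0.54, SE 0.04, adjusted p = 2.9e-05) and Mark4, a kinase of the tau repeat region, rose (log2 0.58, SE 0.05, adjusted p = 4.3e-05). Of 15 genes for microtubule severing and tubulin modification 2 rose and 4 fell in HD-Control, 3 and 10 with a weight per group, and 9 rose and 4 fell in HD-WNT5B, 6 and 7 with equal totals. Against WT-Control, HD-WNT5B had these counts of higher and lower genes: 2 and 12 for the axonal membrane, 4 and 2 for other intermediate filaments, 5 and 6 for kinesin-1 partners, 2 and 11 for other transport kinesins, 13 and 9 for dynein and dynactin, 10 and 17 for other microtubule-associated proteins, 8 and 14 for the kinases and phosphatases and 8 and 5 for severing and modification. With equal library totals they were 1 and 17, 3 and 5, 2 and 17, 1 and 13, 9 and 14, 5 and 21, 7 and 18, and 5 and 7 in that order, and with the trend on length and GC removed the kinases and phosphatases had 12 higher and 9 lower and the kinesin-1 partners 8 and 5. The balance of these lists in HD-WNT5B thus depends on the scale for other intermediate filaments, kinesin-1 partners, and dynein and dynactin. So does that of the kinases and phosphatases and of severing and modification. Against HD-Control the axonal membrane list turned too, from 3 higher and 12 lower to 8 and 6 with the trend removed. Other microtubule-associated proteins went there from 10 and 17 to 12 and 12.

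**Figure D5:**
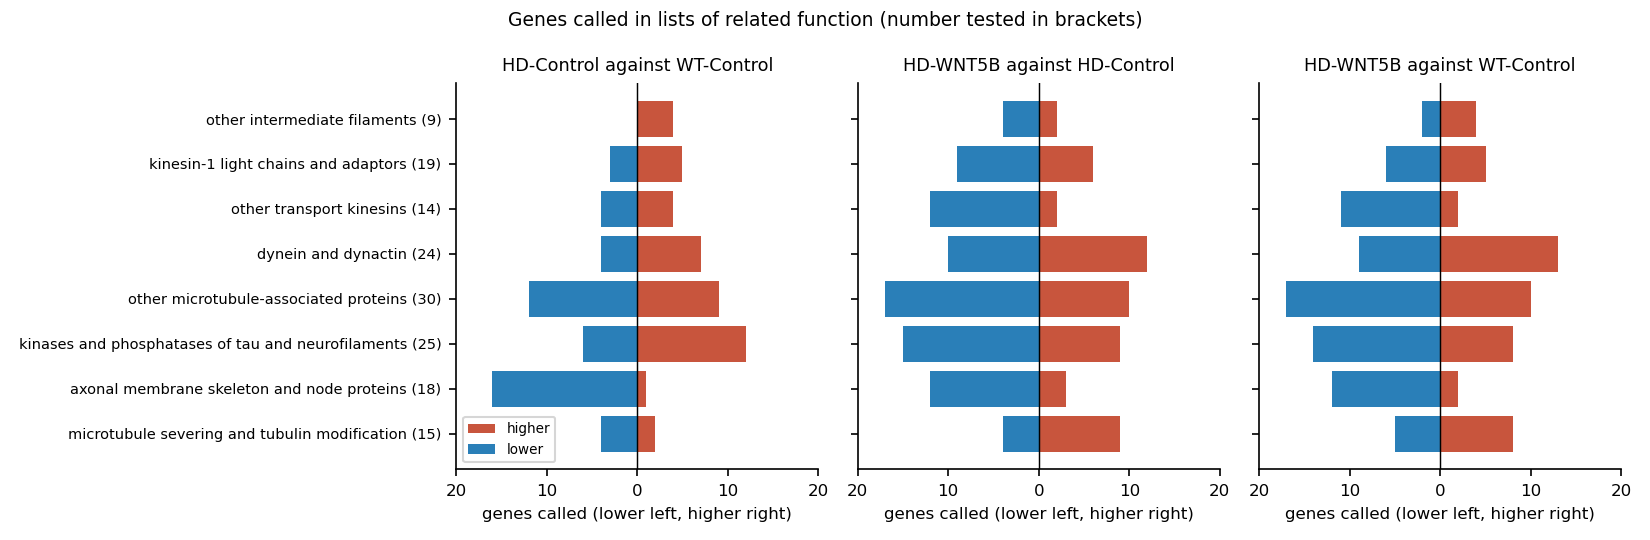
Number of genes called in 8 lists of related function (rows, number tested in brackets) in the 3 comparisons; bars to the right count higher genes and bars to the left lower ones (x axes, genes). In HD-Control against WT-Control the axonal membrane list had 16 lower genes and 1 higher; in HD-WNT5B against HD-Control the other transport kinesins had 12 lower and 2 higher on the deposited scale, and 7 and 5 with the trend on length and GC removed.

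The profiles of 12730 other genes, each averaging 100 or more, were set against the mean log2 profile of each family over the 9 libraries by Pearson correlation, as a description with no test. Slco2b1 (r = 0.998), Olfr1393 (0.9975) and Fam84a (0.9972) were most like the neurofilament subunits. Pcdh9 (0.9988), Nek1 (0.9988) and Clk1 (0.9982) were most like the kinesin-1 heavy chains, and Saal1 (0.9982), Pmepa1 (0.9976) and Wnk4 (0.9969) were most like the microtubule-associated proteins. The 9 points share the 3 groups, their depth and the length trend of HD-WNT5B, so values near 1 are reached by genes that follow the group means. Pcdh9, for example, averaged 1469 in HD-WNT5B, 3840.0 in HD-Control and 6589 in WT-Control, the order of Kif5a.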

How the data were processed

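The 9 libraries (3 per group) were made from poly(A) RNA. The files the authors deposited give a signal value for each protein-coding gene. Judged by the values, these are estimated reads divided by a factor per library: 97.3% to 98.78% of low values were whole multiples (tolerance 0.05) of a step, the value of 1 read, which was 1.606 to 2.1444 in HD-WNT5B, 0.6156 to 0.7972 in HD-Control and 0.7038 to 0.8076 in WT-Control. Reads were aligned with STAR to mm10, per the submitters' processing notes, and neither the counting and normalising programs nor any version is named there. The NEBNext kit named in the labels does not mark strand. All 21853 identifiers matched GENCODE M21, which gave symbols, positions, lengths and exon overlaps.

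The 15411 genes that reached 10 in 3 or more libraries were tested as log2(value + 3) on the deposited scale with limma 3.58.1 in R 4.3.3, fitting the 3 group means to all 9 libraries together (residual degrees of freedom 6) with a variance trend. A gene counts as called at a Benjamini-Hochberg adjusted p under 0.05 over all genes. The added 3 understates changes of low genes. The fit was tested on simulated data. Ratios within libraries were compared by two-sided exact permutation tests. Levels between genes were divided by the longest transcript. The trend on length and GC was a spline with 4 degrees of freedom per library.

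The 10 genes and all lists were chosen with earlier results of these data known. Named were all 10 genes, up to 3 genes with the smallest p per list and comparison, and the 3 genes most correlated with each family, except that some genes of the lists are not reported here. Alternatives covered scale, filter, added constant, spread, replicate block, length and GC, and single libraries left out.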

Additional observations from a re-analysis of the deposited data

How the results depend on the processing

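Under the alternatives, 574 log2 changes of the 10 genes kept their direction and side of the threshold, 11 came to pass it, 6 no longer passed and 9 changed sign. All 60 counts of members called stayed within 1.5 times, but counts of 8 or 9 of 10 cannot rise past that limit. These counts also ignore direction. Genes called in HD-Control against WT-Control numbered 6957, but 12779 with a weight per group and 12908 with only those groups in the fit. Leaving out a library gave 5421 to 8949 genes in that comparison, 11063 to 12532 in HD-WNT5B against HD-Control and 11210 to 12621 in HD-WNT5B against WT-Control. With equal library totals the direction turned for Nefl (-0.30) and Kif5c (-0.17) in HD-WNT5B against HD-Control and for Kif5c (-0.53), Map1a (-0.48) and Mapt (-0.41) against WT-Control, by construction a shift of every gene. Kif5c against WT-Control was -0.02 with upper-quartile and -0.00 with trimmed-mean factors. With the trend on length and GC removed, Kif5b against HD-Control was 0.03, the log2 Mapt to Map1a ratio against WT-Control was -0.07, and Kif5c relative to the neuron markers in HD-Control against WT-Control was 0.00. With a library left out, Nefh in HD-WNT5B against HD-Control ranged from -0.10 to 0.07 and Nefl relative to the neuron markers from -0.02 to 0.11; the cause of these was not tested. With the replicate block, 6402, 11782 and 11891 genes and 8, 9 and 9 members were called in HD-Control against WT-Control and in HD-WNT5B against HD-Control and WT-Control, and no member's call changed. Same-numbered libraries did not deviate together (r of -0.08 to 0.02), so no pairing by number was seen. The check cannot show that they were processed apart. A planned count test on recovered reads was not run, since estimated values far below 1 read are in the files. Depth limits low genes more in HD-WNT5B, where 1 read is worth 1.606 to 2.1444.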

Other observations

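Some genes of the lists of related function were singled out after their values were seen. Map2, the microtubule-associated protein of dendrites, averaged 9554 normalised read counts in HD-WNT5B, 51912 in HD-Control and 77266 in WT-Control. It fell in HD-Control (log2 -0.57, SE 0.12, limma adjusted p = 0.0056) and was lower again in HD-WNT5B (log2 -2.46 against HD-Control, SE 0.12, adjusted p = 1.9e-07), where Mapt, Map1a and Map1b were higher. Ank3, the ankyrin of the axon initial segment, averaged 105536 in HD-WNT5B, 30144 in HD-Control and 47768 in WT-Control. It rose over HD-Control (log2 1.79, SE 0.10, adjusted p = 4.7e-07), where 12 of the 18 axonal membrane genes fell. Tppp, a tubulin polymerisation promoting protein found mainly in oligodendrocytes, averaged 5151 in HD-WNT5B, 13920 in HD-Control and 33747 in WT-Control, whereas the summed oligodendrocyte markers were highest in HD-WNT5B. Stmn2, a tubulin-binding protein of growing axons, averaged 6142, 4474 and 6638 in those groups. It fell in HD-Control (log2 -0.57, SE 0.05, adjusted p = 6.4e-05), and its difference between HD-WNT5B and WT-Control did not pass (log2 -0.11, SE 0.05, adjusted p = 0.0814). The values of these genes are on the deposited scale, with the trend on length and GC left in. Equal library totals moved the median of all genes by -0.54 in HD-WNT5B against HD-Control and by -0.55 against WT-Control. The last difference of Stmn2 thus depends on the scale.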
